A study of Danio rerio with 39 samples.

Results

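The genes *alas1*, *hmbs*, *uros*, *urod* and *fech* encode 5 enzymes of heme synthesis. They were taken as every probe of the arrays whose gene name, in any letter case, is one of these, which gave 7 of 21495 probes and 5 of the 9327 gene names on the arrays. *alas1* (NM_201287), *urod* (NM_131347) and *fech* (NM_131631) had 1 probe each. *hmbs* (NM_201154, current symbol *hmbsa*) had 2 probes, A_15_P100482 and A_15_P106857, and *uros* (NM_212828) had 2 probes, A_15_P114524 and A_15_P118505. The probes of a gene measure the same gene and are given separately.

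Heme, the iron-containing ring of hemoglobin, cytochromes and many oxidases, is built from glycine and succinyl-CoA in steps that are divided between mitochondria and cytosol. *alas1* encodes the housekeeping form of 5-aminolevulinate synthase, the enzyme of the first step, which in mammals limits the rate of synthesis in liver and other tissues outside the erythroid lineage. *hmbs* and *uros* encode the enzymes that join porphobilinogen into a linear chain and close it into uroporphyrinogen, *urod* the enzyme that decarboxylates that ring, and *fech* ferrochelatase, the mitochondrial enzyme that inserts iron in the last step. Loss of *urod* or *fech* function makes porphyrins accumulate in zebrafish blood, and dioxins are known to cause porphyria in mammals.

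The arrays measured RNA of pooled whole embryos of the AB* zebrafish strain, exposed for 1 h, at 4 to 5 h post-fertilization, to TCDD (the dioxin 2,3,7,8-tetrachlorodibenzo-*p*-dioxin) at 1 ng/mL or to its carrier DMSO, the vehicle control. Embryos were collected on days 1 to 5 in 4 independent experiments, the replicates 1 to 4, which gave 4 arrays in each of the 10 groups except TCDD on day 2, where replicate 1 has no array and n = 3 (39 arrays in all, 19 TCDD and 20 vehicle control). Each array carried embryo RNA in red and, in green, a common reference RNA from Zf4, a fibroblast line derived from zebrafish embryos. Within an experiment the embryos of a treatment came from the same dosed batch, and both groups were kept in vials of 15 to 20 embryos. All values below are log2 ratios of embryo to reference RNA unless a fold is named, so 0 means the level of the Zf4 reference and the levels of different probes cannot be set against each other. In RNA from whole embryos, fewer cells of a type and less RNA per cell cannot be told apart.

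The embryo channel had 16329 to 18624 of the 21495 probes well above background per array, and the arrays fell by scan date into 3 batches of 4, 24 and 11. All 7 heme synthesis probes had a value on all 39 arrays, with no outlier flag and no saturated spot, and 6 of them were well above background in both channels on every array. The exception was *hmbs* A_15_P106857, which reached this level in embryo RNA on 38 of 39 arrays, with a processed embryo signal of 37.9 to 1016 (median 159). *cyp1a*, the dioxin-induced cytochrome P450 that serves as the check of the exposure, had log2 ratios that were higher in TCDD embryos than in vehicle control by 4.31 to 6.61 on the 5 days, and the 2 treatments did not overlap on any day (limma, adjusted p at most 1.45e-06).

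The main question was whether TCDD changed the level of these transcripts on each day. Of the 7 probes, *alas1* was higher in TCDD embryos on days 4 and 5, at 1.63 and 1.96 times vehicle control, and *fech* was lower on day 3, at 0.84 times. No probe of *hmbs*, *uros* or *urod* was called on any day in the main fit. The dim *hmbs* probe A_15_P106857 was called higher on day 3 under 4 of 10 alternative settings. Among these was the fit with the experiment as a block (limma, unadjusted p = 0.0043). It was also called in 1 of 4 fits that left out an experiment. A probe was called at an unadjusted p under 0.01, the threshold of the study, in a linear model of all 39 arrays (limma). Of the 7 probes, 0, 0, 1, 1 and 1 were called on days 1 to 5, where 0.717%, 3.30%, 6.52%, 3.38% and 9.24% of all probes were called. At an adjusted p under 0.05 (Benjamini-Hochberg over all probes) 0, 0, 0, 1 and 1 of the 7 were called, against 0.0140%, 2.75% and 6.27% of all probes on days 1, 3 and 5, and 0.703% and 0.893% on days 2 and 4. The median log2 difference of the 7 probes was −0.027, −0.032, −0.087, 0.015 and 0.062 on the 5 days, and that of all probes 0.00060, 0.0074, 0.031, 0.015 and −0.0015. Both medians were close to 0 on each day.

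**Figure D1:**
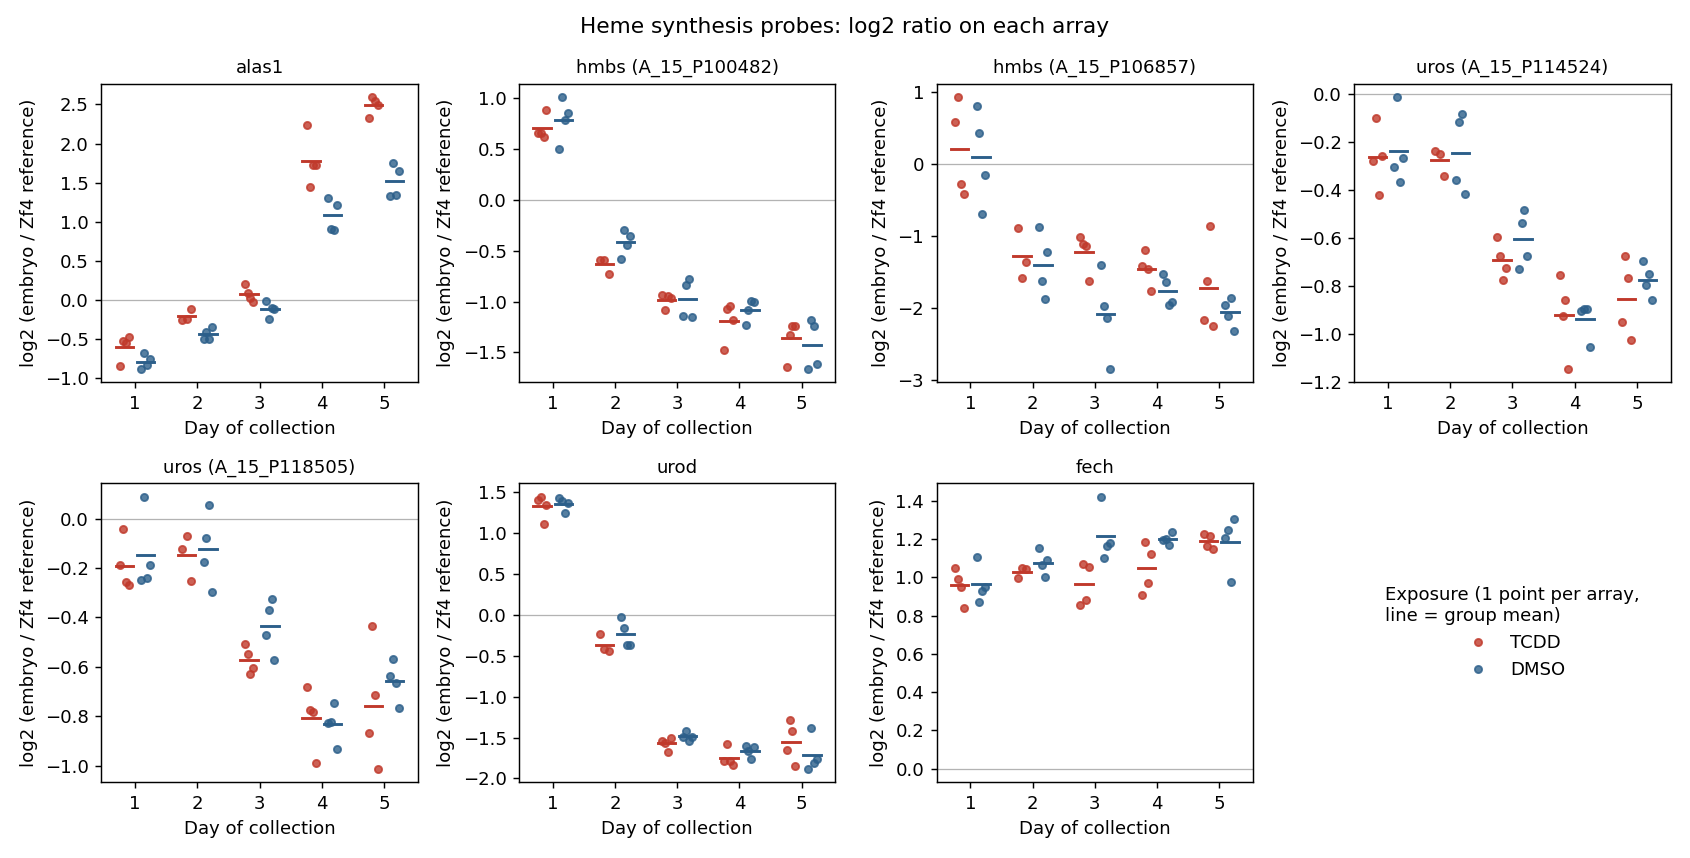
Log2 ratio of embryo to Zf4 reference RNA (vertical axes, each with its own range) of the 7 heme synthesis probes by day of collection, with 1 point per array and a line at the mean of each group; TCDD is left of DMSO on each day. *alas1* rises over the days and stands at a mean of 2.49 with TCDD and 1.52 with DMSO on day 5, while *urod* and *hmbs* decline in both groups.

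On day 1, *alas1* stood at −0.85, −0.52, −0.56 and −0.47 in TCDD embryos, against −0.89, −0.68, −0.84 and −0.76 in vehicle control. On day 2, *alas1* stood at −0.26, −0.25 and −0.12 in TCDD embryos, against −0.50, −0.41, −0.51 and −0.35 in vehicle control. On day 3, *alas1* stood at 0.20, 0.09, 0.02 and −0.03 in TCDD embryos, against −0.01, −0.24, −0.10 and −0.11 in vehicle control. On these 3 days the TCDD array was above the vehicle control array of the same experiment in 4 of 4, 3 of 3 and 4 of 4 experiments, but the groups overlapped on days 1 and 3. The log2 differences were 0.19, 0.23 and 0.19 (SE 0.12, 0.13 and 0.12), and none was called (unadjusted p = 0.128, 0.0921 and 0.135; limma, adjusted p = 1.00, 0.717 and 0.504). The upper bounds of their 95% intervals were 0.44, 0.50 and 0.43, so increases up to that size lay within the intervals.

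On day 4 the ratios of *alas1* were 2.24, 1.45, 1.72 and 1.72 in TCDD embryos, against 1.304, 0.90, 0.90 and 1.21 in vehicle control. On day 5 they were 2.33, 2.59, 2.55 and 2.49 in TCDD embryos, against 1.33, 1.75, 1.34 and 1.65 in vehicle control. Every TCDD array lay above every vehicle control array on both days. The group means were 1.78 ± 0.33 in TCDD embryos and 1.08 ± 0.21 in vehicle control on day 4, and 2.49 ± 0.12 in TCDD embryos and 1.52 ± 0.21 in vehicle control on day 5 (SD, n = 4 each). *alas1* was thus 1.63-fold higher with TCDD on day 4 (log2 difference 0.70, SE 0.12, 95% interval of the fold 1.37 to 1.93; limma, adjusted p = 0.00279). On day 5 it was 1.96-fold higher (log2 difference 0.97, SE 0.12, 95% interval of the fold 1.65 to 2.33; adjusted p = 9e-06). Within the experiments the difference was 0.51 to 0.93 on day 4 and 0.84 to 1.21 on day 5, above 0 in 4 of 4 on each day. The 1.21 was that of replicate 3, whose 2 arrays had been scanned in different batches, and the other pairs of day 5 gave 0.84 to 0.99. Scan batches 2 and 3 held both treatments on these days. Within batch 2 the difference was 0.77 on day 4 (3 TCDD and 3 vehicle control arrays) and 0.99 on day 5 (2 and 3). Within batch 3 it was 0.51 on day 4 (1 and 1, the pair of replicate 4 again) and 0.87 on day 5 (2 and 1).

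The call on *alas1* on days 4 and 5 was made under each of 10 alternative settings and without each experiment in turn. The adjusted p ranged from 0.0016 to 0.324 on day 4 and from 3.63e-06 to 0.0663 on day 5 over those settings, with the highest values where each day was fitted alone. Averaged over the 5 days, *alas1* was higher with TCDD by 0.46 (SE 0.055, limma, adjusted p = 3.1e-07), and it was the 1 probe of the 7 called, where 13.9% of all probes were called (12.2% at an adjusted p under 0.05). This fit treats the days of an experiment as independent, although their embryos came from the same dosed batches in 4 experiments. The SE of an average over days therefore leaves out what the days of an experiment share. With the experiment as a block, 2 of the 7 were called on average, the second being *hmbs* A_15_P106857 at a log2 difference of 0.36 (limma, unadjusted p = 0.0076). This block raised the calls over all probes as well, from 4.63% to 6.13% of all probe-days. The share of all probes called on average with the block is not given here.

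The TCDD effect on *alas1* was not equal on the 5 days at the threshold used. The interaction of day and treatment was called for *alas1* alone among the 7 probes (F = 8.68, unadjusted p = 8.2e-05), where 1.87% of all probes were called, but its adjusted p was 0.063, and 0.0931% of all probes passed an adjusted p under 0.05. The effect on day 4 exceeded that on day 1 by 0.51 (95% interval 0.16 to 0.86), and that on day 5 exceeded it by 0.78 (0.43 to 1.13). Without replicate 3 the interaction was no longer called (F = 4.17, unadjusted p = 0.0124, limma, adjusted p = 1.00).

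**Figure D2:**
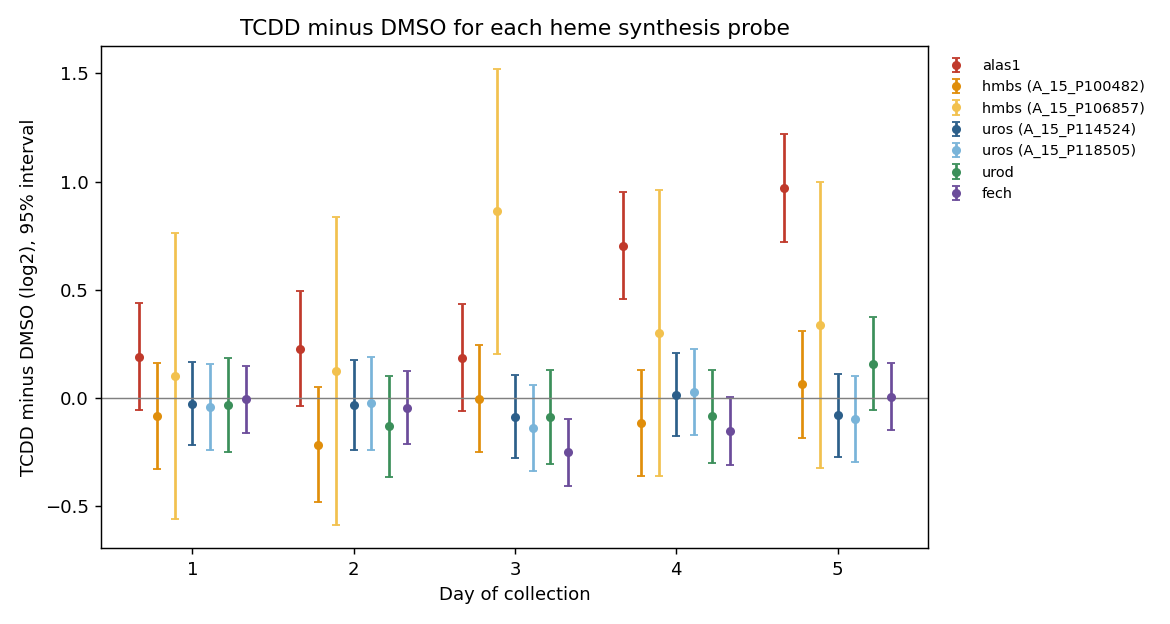
Difference of the group means, TCDD minus DMSO, on the log2 scale (vertical axis) with its 95% interval from limma for each of the 7 probes on each day of collection (horizontal axis). The intervals of *alas1* on days 4 and 5 start at 0.46 and 0.72, and the dim *hmbs* probe A_15_P106857 has the widest intervals.

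The 2 probes of *hmbs*, hydroxymethylbilane synthase, differed in brightness and in spread. On day 1, A_15_P100482 stood at 0.66, 0.65, 0.61 and 0.88 in TCDD embryos, against 0.50, 1.01, 0.78 and 0.85 in vehicle control. On day 2, A_15_P100482 stood at −0.59, −0.59 and −0.73 in TCDD embryos, against −0.58, −0.29, −0.44 and −0.36 in vehicle control. On day 3, A_15_P100482 stood at −0.94, −1.08, −0.95 and −0.96 in TCDD embryos, against −1.15, −0.84, −0.78 and −1.15 in vehicle control. On day 2 the 3 TCDD arrays lay just below the lowest vehicle control array, and on days 1 and 3 the groups overlapped. On day 4, A_15_P100482 stood at −1.48, −1.07, −1.04 and −1.18 in TCDD embryos, against −1.23, −1.08, −0.99 and −1.01 in vehicle control. On day 5, A_15_P100482 stood at −1.64, −1.33, −1.24 and −1.24 in TCDD embryos, against −1.66, −1.18, −1.24 and −1.62 in vehicle control. The groups overlapped on both of these days. The log2 differences of this probe were −0.083, −0.22, −0.003, −0.12 and 0.062 on days 1 to 5, with an SE of 0.12 (0.13 on day 2). The smallest unadjusted p was 0.106, on day 2 (limma, adjusted p = 0.744), where the TCDD array was the lower one in 3 of 3 experiments. With the experiment as a block the day 2 difference was −0.27, without a call (limma, unadjusted p = 0.012, adjusted p = 0.221).

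On day 1, A_15_P106857 stood at 0.58, 0.92, −0.28 and −0.43 in TCDD embryos, against 0.81, 0.43, −0.69 and −0.15 in vehicle control. On day 2, A_15_P106857 stood at −0.89, −1.58 and −1.36 in TCDD embryos, against −0.88, −1.63, −1.88 and −1.23 in vehicle control. On day 3, A_15_P106857 stood at −1.02, −1.12, −1.15 and −1.62 in TCDD embryos, against −1.40, −1.98, −2.14 and −2.85 in vehicle control. On day 3 the TCDD array was above the vehicle control array in 4 of 4 experiments, yet the lowest TCDD array lay below the highest vehicle control array. On day 4, A_15_P106857 stood at −1.43, −1.19, −1.46 and −1.77 in TCDD embryos, against −1.53, −1.64, −1.96 and −1.91 in vehicle control. On day 5, A_15_P106857 stood at −2.17, −1.62, −0.86 and −2.25 in TCDD embryos, against −1.96, −2.10, −1.86 and −2.32 in vehicle control. The largest difference of this probe was 0.86 on day 3 (SE 0.32, 95% interval 0.20 to 1.52), which was not called (unadjusted p = 0.0122, limma, adjusted p = 0.167). The 1 array on which this probe was not well above background, vehicle control replicate 4 at −2.85, lies in this comparison and gave the largest difference within an experiment (1.22), and without replicate 4 the difference was 0.74 (unadjusted p = 0.0563, limma). It was called with the experiment as a block (unadjusted p = 0.0043, adjusted p = 0.072) and with a block for scan batch (log2 difference 1.04, adjusted p = 0.028), while with another background correction (normexp) and loess the difference was 0.24. The embryo channel alone (1.00, limma, unadjusted p = 0.0031) and array weights (0.81, unadjusted p = 0.0079) also called it, which made 4 of 10 settings. Of the 4 fits that left out an experiment, the 1 without replicate 1 called it (1.02, unadjusted p = 0.0091). Over all alternatives its adjusted p on day 3 ranged from 0.028 to 0.409. The brighter *hmbs* probe differed by −0.003 on the same day (95% interval −0.25 to 0.24).

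For *uros*, uroporphyrinogen III synthase, both probes gave close values. On day 1, A_15_P114524 stood at −0.28, −0.10, −0.42 and −0.26 in TCDD embryos, against −0.30, −0.01, −0.37 and −0.27 in vehicle control. On day 2, A_15_P114524 stood at −0.24, −0.25 and −0.34 in TCDD embryos, against −0.36, −0.12, −0.08 and −0.42 in vehicle control. On day 3, A_15_P114524 stood at −0.60, −0.67, −0.78 and −0.73 in TCDD embryos, against −0.73, −0.54, −0.48 and −0.68 in vehicle control. The groups overlapped on these 3 days. On day 4, A_15_P114524 stood at −0.76, −0.93, −0.86 and −1.15 in TCDD embryos, against −0.91, −0.89, −0.90 and −1.05 in vehicle control. On day 5, A_15_P114524 stood at −0.95, −0.68, −0.77 and −1.03 in TCDD embryos, against −0.70, −0.80, −0.75 and −0.86 in vehicle control. Here too the groups overlapped, and the widest spread was that of the TCDD arrays on day 4, from −1.15 to −0.76. On day 1, A_15_P118505 stood at −0.19, −0.04, −0.26 and −0.27 in TCDD embryos, against −0.25, 0.09, −0.24 and −0.19 in vehicle control. On day 2, A_15_P118505 stood at −0.12, −0.07 and −0.25 in TCDD embryos, against −0.18, −0.08, 0.06 and −0.30 in vehicle control. On day 3, A_15_P118505 stood at −0.51, −0.55, −0.63 and −0.61 in TCDD embryos, against −0.47, −0.37, −0.32 and −0.57 in vehicle control. On day 3 the second probe was lower with TCDD in 4 of 4 experiments, with overlapping groups. On day 4, A_15_P118505 stood at −0.68, −0.77, −0.78 and −0.99 in TCDD embryos, against −0.83, −0.82, −0.74 and −0.93 in vehicle control. On day 5, A_15_P118505 stood at −0.87, −0.44, −0.71 and −1.01 in TCDD embryos, against −0.64, −0.57, −0.66 and −0.76 in vehicle control. Over the 5 days the log2 differences ranged from −0.087 to 0.015 for A_15_P114524 and from −0.14 to 0.026 for A_15_P118505, the smallest unadjusted p was 0.163, and the 95% intervals reached from −0.34 to 0.23, so changes beyond that range lay outside the interval on every day for both probes.

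*urod*, uroporphyrinogen decarboxylase, was likewise not called on any day. On day 1, *urod* stood at 1.40, 1.44, 1.11 and 1.35 in TCDD embryos, against 1.43, 1.39, 1.24 and 1.37 in vehicle control. On day 2, *urod* stood at −0.23, −0.41 and −0.44 in TCDD embryos, against −0.02, −0.16, −0.37 and −0.36 in vehicle control. On day 3, *urod* stood at −1.54, −1.57, −1.68 and −1.50 in TCDD embryos, against −1.49, −1.41, −1.54 and −1.49 in vehicle control. The TCDD array was the lower one in 3 of 4, 3 of 3 and 4 of 4 experiments on these days, with overlapping groups. On day 4, *urod* stood at −1.79, −1.58, −1.78 and −1.84 in TCDD embryos, against −1.61, −1.66, −1.77 and −1.62 in vehicle control. On day 5, *urod* stood at −1.65, −1.28, −1.42 and −1.85 in TCDD embryos, against −1.88, −1.38, −1.81 and −1.77 in vehicle control. The log2 differences were −0.033, −0.13, −0.088, −0.085 and 0.16 on days 1 to 5 (SE 0.11), the smallest unadjusted p was 0.145, on day 5, and the 95% intervals together reached from −0.37 to 0.37.

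*fech*, ferrochelatase, had the narrowest spread of the 7 probes, with a median SD of 0.0953 over the 10 groups. On day 1, *fech* stood at 1.05, 0.99, 0.95 and 0.84 in TCDD embryos, against 1.11, 0.87, 0.93 and 0.95 in vehicle control. On day 2, *fech* stood at 1.00, 1.05 and 1.04 in TCDD embryos, against 1.15, 1.07, 1.00 and 1.09 in vehicle control. On day 3, *fech* stood at 0.85, 1.07, 0.88 and 1.05 in TCDD embryos, against 1.42, 1.102, 1.16 and 1.18 in vehicle control. On day 3 every TCDD array lay below every vehicle control array, and on days 1 and 2 the groups overlapped. On day 4, *fech* stood at 0.91, 1.18, 0.97 and 1.12 in TCDD embryos, against 1.196, 1.199, 1.17 and 1.24 in vehicle control. On day 5, *fech* stood at 1.22, 1.16, 1.21 and 1.15 in TCDD embryos, against 1.203, 1.25, 0.98 and 1.304 in vehicle control. On day 4 the TCDD array was the lower one in 4 of 4 experiments, although the highest TCDD array was above the lowest vehicle control array. The group means were 0.96 ± 0.11 in TCDD embryos and 1.22 ± 0.14 in vehicle control on day 3 (SD, n = 4 each), a fold of 0.84 (0.754 to 0.935), and the log2 difference of −0.25 (SE 0.076) was called (unadjusted p = 0.0024) at an adjusted p of 0.069. On day 4 the difference was −0.15 (unadjusted p = 0.0527, adjusted p = 0.58) and on day 5 it was 0.005.

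The call on *fech* did not hold under every setting. Within the experiments the day 3 difference was −0.57, −0.034, −0.28 and −0.13 in replicates 1 to 4, and in replicate 1 the TCDD and vehicle control arrays had been scanned in different batches. Within scan batch 2 (3 TCDD and 2 vehicle control arrays) the difference was −0.20 and within batch 3 (1 and 1) −0.13. With a block for scan batch it was −0.21 and was called (unadjusted p = 0.00431), and with the experiment as a block the adjusted p was 0.046. It was not called without replicate 1 (−0.15, unadjusted p = 0.0767), without replicate 3 (−0.24, unadjusted p = 0.0151), with day 3 fitted alone (unadjusted p = 0.032) or in the embryo channel alone (−0.33, unadjusted p = 0.0888).

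**Figure D3:**
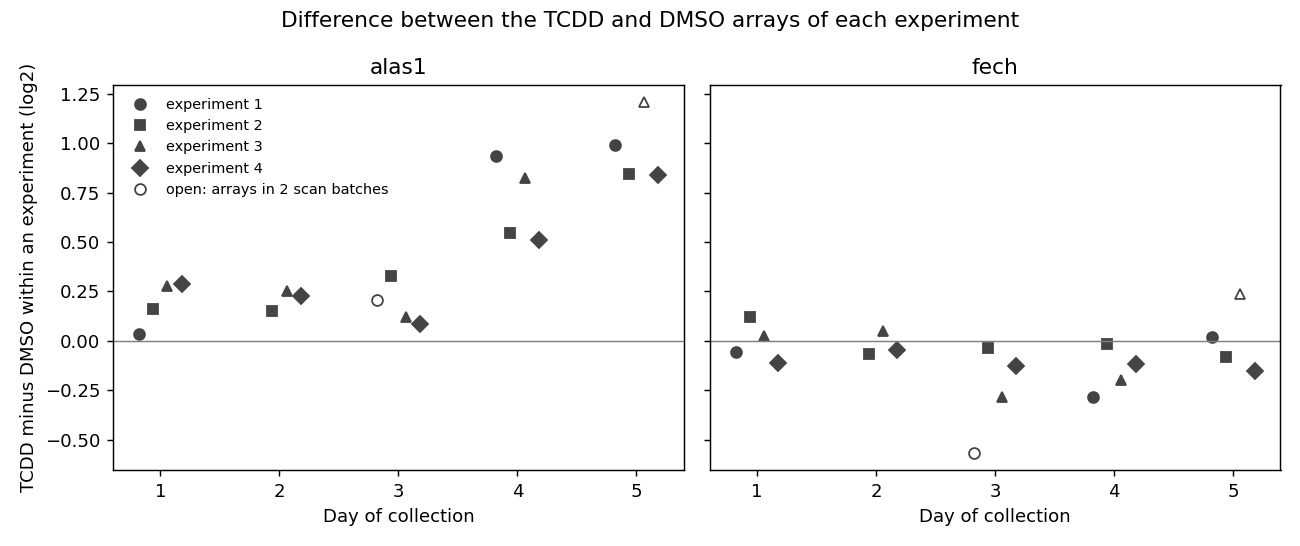
Log2 ratio of the TCDD array minus that of the DMSO array of the same experiment (vertical axis) for *alas1* and *fech* by day of collection, with 1 symbol per experiment and open symbols where the arrays of a pair were scanned in different batches. For *alas1* all symbols are above 0, at 0.51 to 1.21 on days 4 and 5, and for *fech* the lowest symbol, −0.57 on day 3, is an open one.

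The second comparison was that between days, which follows the normal course of the transcripts in vehicle control embryos. *alas1* rose and *urod*, *hmbs* and *uros* fell between day 1 and day 5, while *fech* moved least. In the test over all days, 6 of the 7 probes were called in vehicle control, where 45.8% of all probes were called; at an adjusted p under 0.05 it was 7 of 7, against 49.9% of all probes. The exception at the unadjusted threshold was *fech* (limma, unadjusted p = 0.0108, adjusted p = 0.0235). Between consecutive days 4, 4, 3 and 2 of the 7 probes were called, from day 1 to 2 through day 4 to 5, where 27.3%, 14.4%, 14.2% and 7.66% of all probes were called.

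In vehicle control, the mean of *alas1* was higher on each later day, with values of −0.79 ± 0.089, −0.44 ± 0.075, −0.12 ± 0.095, 1.08 ± 0.21 and 1.52 ± 0.21 on days 1 to 5 (SD, n = 4 each). The largest step was that from day 3 to day 4, 1.197 (SE 0.12; limma, adjusted p = 1.4e-08), and the steps from day 1 to 2 and from day 4 to 5 were also called (0.35 and 0.44, adjusted p = 0.0276 and 0.0277). The neighbours day 2 and day 3 differed by 0.32 and were not called (unadjusted p = 0.0123). In TCDD embryos the order of the days was the same, with means of −0.60 ± 0.17, −0.21 ± 0.079 (n = 3), 0.069 ± 0.097, 1.78 ± 0.33 and 2.49 ± 0.12 (SD, n = 4 on the other days). From day 1 to day 5 *alas1* increased by 3.09 in TCDD embryos, a fold of 8.51, and by 2.31 in vehicle control, a fold of 4.95.

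*urod* had the largest decrease of the 7 probes. Its mean in vehicle control was 1.36 ± 0.083 on day 1, −0.23 ± 0.17 on day 2 and −1.48 ± 0.052 on day 3, and it dropped by 1.59 and by 1.25 over these steps (adjusted p = 2e-13 and 7.4e-10). Days 3, 4 and 5, at −1.48, −1.66 and −1.71, were neighbours that did not differ at the threshold. Between days 1 and 5 *urod* fell by 2.88 on the log2 scale in TCDD embryos, to 0.136 of the day 1 level, and by 3.07 in vehicle control, to 0.119 of it.

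*hmbs* took a similar course on its brighter probe. In vehicle control A_15_P100482 had means of 0.79 ± 0.21, −0.42 ± 0.12, −0.98 ± 0.20, −1.08 ± 0.11 and −1.42 ± 0.25 on days 1 to 5. The steps from day 1 to 2 and from day 2 to 3 were called (−1.204 and −0.56, adjusted p = 1.5e-09 and 0.00128), days 3 and 4 did not differ at the threshold, and the step from day 4 to 5 (−0.35, unadjusted p = 0.00757) had an adjusted p of 0.108. The dim probe A_15_P106857 dropped by 1.501 from day 1 to day 2 (adjusted p = 0.00045), and its later days, at −1.40 to −2.09, differed by less than the threshold between neighbours. From day 1 to day 5 the brighter and the dim probe fell by 2.06 and 1.92 in TCDD embryos, and by 2.21 and 2.16 in vehicle control.

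*uros* declined later and less. In vehicle control A_15_P114524 had means of −0.24 ± 0.15 and −0.25 ± 0.17 on days 1 and 2, which did not differ at the threshold, and it dropped by 0.36 to day 3 and by 0.33 to day 4 (adjusted p = 0.00782 and 0.015). A_15_P118505 dropped by 0.31 and by 0.40 over the same steps (adjusted p = 0.0313 and 0.00456). Day 5 stood above day 4 by 0.16 and 0.17 on the 2 probes, without a call.

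*fech* increased by 0.23 from day 1 to day 5 in TCDD embryos and by 0.22 in vehicle control (unadjusted p = 0.00495 and 0.00723, adjusted p = 0.0128 and 0.0175). No neighbouring days in the order of its levels differed at the threshold in either group. Vehicle control was highest on day 3 (1.22 ± 0.14) and TCDD embryos on day 5 (1.19 ± 0.037).

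Other genes of heme and iron metabolism were taken from lists by gene name. Among the remaining enzymes of heme synthesis, *cpox*, coproporphyrinogen oxidase, was matched on 2 probes, and no probe was matched to *alas2* or *ppox* by name. A_15_P107786 differed by −0.042 to 0.18 over the 5 days and A_15_P116527 by −0.036 to 0.25, with no call. Probes whose description, though not their name, gives a heme enzyme were looked for after the values had been seen. One of 2 such *cpox* probes, A_15_P103389, was higher with TCDD on day 5 by 0.34 (adjusted p = 0.0448) and the other, A_15_P105157, differed by 0.11 on that day, so the 4 *cpox* probes do not give the same call. On day 3, A_15_P103389 was higher by 0.29, in 4 of 4 experiments, but was not called (limma, unadjusted p = 0.0112). Its differences on days 1, 2 and 4 were 0.083, 0.10 and 0.10, without a call. The probe described as *alad*, the enzyme of the second step (A_15_P112185), differed by 0.037 to 0.16 and was not called. In its course over the days it declined like *hmbs* and *urod*, to −2.26 in TCDD embryos and −2.35 in vehicle control on day 5, against −0.48 in TCDD embryos and −0.52 in vehicle control on day 1. A further probe described as *hmbs*, A_15_P102436, stood well above background in embryo RNA on 19 of 39 arrays, and its largest difference was −0.33, on day 1, without a call.

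Of the 27 probes of the other heme and iron lists, 6 of 135 probe-days were called, all of them higher with TCDD, where 4.63% of all probe-days were called. The count of the lists is near that share. With the experiment as a block 18 were called, where 6.13% of all probe-days were called, 17 of the 18 higher and 1 lower, and 9 of them belonged to 4 probes of *fth1a*, a ferritin heavy chain that stores iron. Mitochondrial heme and iron transport, with 9 probes of 6 genes, had no call on any day, but 3 of the 9 were detected in embryo RNA on fewer than 10 of 39 arrays and could hardly show a change, and 4 were detected on all. In this list, with the experiment as a block *tmem14cb*, a relative of a porphyrin carrier, was called higher on day 3 (1.51, adjusted p = 0.0725) and *slc25a39*, a mitochondrial carrier needed for heme synthesis, lower on day 5 (−0.23, adjusted p = 0.0283). The list of heme breakdown, export and sensing had 2 probes of 2 genes, *hebp2* (a heme-binding protein) and *nr1d1*, so no gene of heme breakdown or export was matched by name. There *hebp2* was higher on day 5 by 0.61 (adjusted p = 0.0146). A probe described as heme oxygenase, A_15_P106601, was well above background in embryo RNA on 19 of 39 arrays. On day 2 it differed by −0.53, without a call (limma, unadjusted p = 0.0951). The 2 probes described as biliverdin reductase A were well above background in embryo RNA on 39 of 39 arrays. On day 3, A_15_P119682 had means of 0.11 ± 0.48 in TCDD embryos and −0.37 ± 0.27 in vehicle control (SD), and A_15_P106584 had −0.22 in both groups. On day 5 the means were −0.30 and −0.062 for the first and −0.39 and −0.33 for the second. Iron handling had 14 probes of 9 genes. There *fthl27*, a ferritin gene, was higher with TCDD on days 2 to 5, by 0.33, 0.45, 0.30 and 0.47 (adjusted p = 0.261, 0.0154, 0.274 and 0.00537). *cp*, which encodes the ferroxidase ceruloplasmin of the blood plasma, was higher by 1.07 on day 5 (adjusted p = 0.00287). The median difference of the iron handling probes was 0.11, 0.24, 0.17, 0.25 and 0.17 on days 1 to 5, where that of all probes lay between −0.0015 and 0.031. The 5 probes of *fth1a* in this list stood between 0.14 and 0.33 on all 5 days and were not called on any single day. The median above counts probes, so this 1 gene enters it 5 times.

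Cytochrome P450 enzymes carry heme. Besides *cyp1a*, 13 probes of 10 such genes were on the list, and 4 of the 13 were higher with TCDD on day 5, where 9.24% of all probes were called. These were *cyp7a1*, the enzyme that starts bile acid synthesis, by 2.13 (adjusted p = 0.00022), *cyp26a1*, which breaks down retinoic acid, by 0.84 (adjusted p = 0.0633), *cyp51*, an enzyme of sterol synthesis, by 0.62 (adjusted p = 0.0693), and *cyp3c1* by 0.35 (adjusted p = 0.0215). *cyp3c1* was also called on days 3 and 4 (0.32 and 0.28), where 6.52% and 3.38% of all probes were called, but not at an adjusted p under 0.05. With the experiment as a block its adjusted p on these days was 0.0057 and 0.0316 (limma). *cyp11a1*, which starts steroid synthesis, was lower on day 1 on its best detected probe (−0.72, adjusted p = 1.00), and its other probes were detected in embryo RNA on 0 and 9 of 39 arrays.

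**Figure D4:**
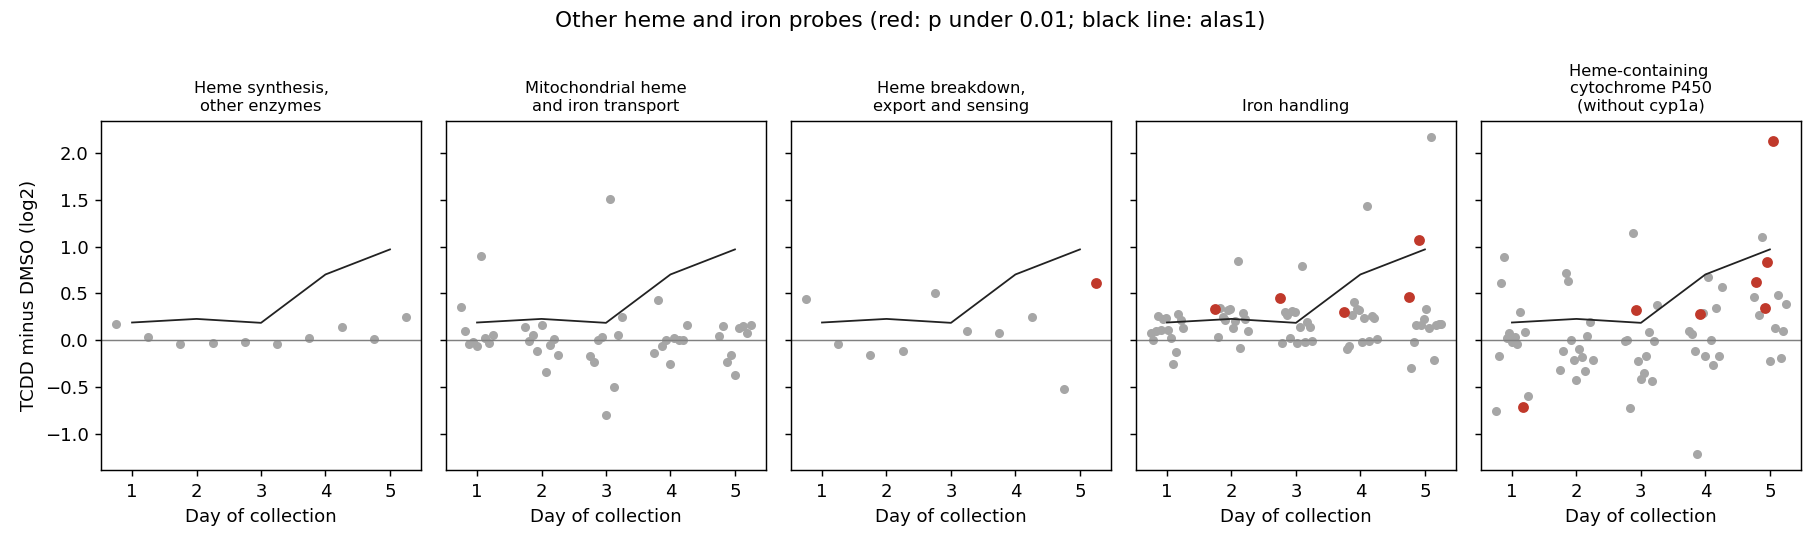
Difference of the group means, TCDD minus DMSO, on the log2 scale (vertical axis) by day of collection, with 1 point per probe of the 5 gene lists, red where the unadjusted p was under 0.01, and a black line for *alas1*. The probe of *cyp1a* is left out of the cytochrome P450 panel. Called probes are in the lists of heme breakdown, export and sensing (there only *hebp2*), iron handling and cytochrome P450. The 2 *cpox* probes and the 9 transport probes stay grey on every day.

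Blood and liver are the main sites of heme synthesis, so their markers are given beside the heme genes. The erythroid list had 23 probes, 17 of them detected in embryo RNA on each array, and its mean log2 ratio was 2.53 to 2.88 in the TCDD arrays and 2.14 to 2.91 in the vehicle control arrays on day 4, and 2.57 to 3.05 in TCDD and 2.64 to 2.92 in vehicle control arrays on day 5. On day 3, where *fech* was lower, the erythroid mean was 2.60 to 3.11 in TCDD and 2.80 to 3.16 in vehicle control arrays, and the part of blood RNA in that change was not tested. On days 4 and 5, 0 of its 23 probes were called, where 3.38% and 9.24% of all probes were called. Over the other days 2 were, *hbbe2*, an embryonic beta globin, lower on day 1 by 1.45 (adjusted p = 0.573), and *lmo2*, a factor of early blood and vessel formation, higher on day 3 by 1.53 (adjusted p = 0.148). Of all probes, 0.717%, 3.30% and 6.52% were called on days 1 to 3. The liver list had 38 probes, 30 of them detected on each array, and its mean was 4.13 to 4.88 in TCDD and 4.06 to 4.54 in vehicle control arrays on day 4, and 4.48 to 5.04 in TCDD and 4.54 to 4.68 in vehicle control arrays on day 5. On day 3, 2 of the 38 were called, where 6.52% of all probes were called. They were a probe of *fgg* (fibrinogen gamma), higher by 0.95, and one of *ttr* (transthyretin). The *ttr* probe has no usable value there, being well above background on 1 of 4 arrays in TCDD embryos and 1 of 4 in vehicle control. On day 4, 1 of the 38 was called, where 3.38% of all probes were called. It was *rbp4l*, a gene of the retinol-binding protein family, lower by 0.66. On day 5, 9 of 38 were called, all higher, where 9.24% of all probes were called. With the experiment as a block 3 of the 38 were called on day 4, the *rbp4l* probe and, higher, 1 probe each of the fibrinogen genes *fga* (0.60, adjusted p = 0.157) and *fgg* (0.84, adjusted p = 0.119). With this block 1027 of all 21494 probes tested were called on that day. The 9 of day 5 were 8 probes of the fibrinogen genes *fga*, *fgb* and *fgg*, at 0.45 to 1.49, and *cp*, while *fabp10a*, the liver fatty acid-binding protein, differed by −0.20 and *tfa*, transferrin, by 0.33 and −0.024 on its 2 probes. The median difference of all 38 liver probes on day 5 was 0.12, where that of all probes was −0.0015. On that day *fga* A_15_P104121 and A_15_P117894 and *fgb* A_15_P103556 were not called. With the experiment as a block, 2 of the 38 were called on day 2, where 1073 of all 21493 probes tested were called. They were *fga* A_15_P109389 and *fgg* A_15_P117178, both higher (0.67 and 0.95, limma, adjusted p = 0.131 and 0.0882). With this block both were also called higher on day 3 (0.56 and 0.95, limma, adjusted p = 0.112 and 0.0323). With the *ttr* probe, 3 of the 38 were called on that day, where 1813 of all 21492 probes tested were called. *alas1* was not called on day 2 or day 3 in any setting. It was higher with TCDD on day 2 by 0.23, in 3 of 3 experiments and without overlap of the groups. On day 3 it was higher by 0.19, in 4 of 4 experiments, with overlapping groups. The missing calls therefore do not show that *alas1* was unchanged on these days. The part of liver RNA in the change of *alas1* was not tested.

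The genes whose course over the 10 group means was most like that of each heme gene were looked for among 8278 named probes well above background on all arrays (6482 gene names). The values are Pearson's r over the 10 means, which share the days, so a change with age alone gives a high r, and no test was made. For *alas1* they were zgc:65787 (current symbol *slc25a33*), zgc:55750 (*rasl11b*) and zgc:56626 (*cyp3c1*, named above), with r of 0.991, 0.988 and 0.987. For *urod* they were *cad*, *npc2* and *shmt1* (0.999, 0.998 and 0.997), and for *hmbs* A_15_P100482 zgc:55678 (*xpo4*), zgc:85649 (*ranbp1*) and wu:fb92c12 (0.996, 0.995 and 0.995). For *uros* A_15_P114524 they were *fzr1*, *tix1* and zgc:56692 (*pgrmc2*), with r of 0.996, 0.994 and 0.992. *fech*, which moved least, had lower values with *fgfr1*, zgc:86773 (*rab1bb*) and zgc:77291 (*nfe2l3*), 0.977, 0.972 and 0.971.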

How the data were processed

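The authors hybridised embryo RNA (Cy5, red) with Zf4 reference RNA (Cy3, green) on 22K 60-mer zebrafish arrays, and Agilent Feature Extraction (version 8.1.1 in the file headers) subtracted background and normalized the dyes. The deposited log10 ratio of red over green of each scanner file was converted to log2, and the deposited processed intensity of the red channel served as an alternative. Control spots (1080) and outlier-flagged spots (10 to 107 per array) were left out. The deposited series table held the same 880425 values. No genome build is given in the sources used here, and no coordinates or sequences are printed.

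The 39 arrays were fitted in limma (version 3.58.1, R 4.3.3) with 1 mean per day and treatment, without a block. The p-values were adjusted by Benjamini-Hochberg over the probes tested in a comparison, 21491 to 21495 of them. The study used analysis of variance at an unadjusted p of 0.01, taken here as the call. The fit was tested on simulated data in which 200 probes differed by 1 on the log2 scale on day 5. Of these, 79% were called and 61% passed an adjusted p under 0.05, and 1.06% of the unchanged probes were called. The simulated arrays were independent, without pairing by experiment. A probe that is not called can thus still differ.

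The replicate number names an independent experiment in the labels, so it pairs the arrays: deviations from the group means correlated at a median r of 0.23 (−0.14 to 0.40) in 19 same-number TCDD and DMSO pairs and −0.067 (−0.30 to 0.17) in 57 others. Alternatives were normexp with loess (offset 50), median centring, the red channel alone (75th percentile), a filter on dim probes, outlier spots kept, replicate or scan batch as a block, array weights, ordinary analysis of variance, each day alone and leaving out each experiment. The named genes were all heme synthesis probes called in at least 1 comparison, up to 6 called genes of each other list, and the 3 most alike genes by Pearson's r. Members, lists and tests were chosen with earlier results of these data known. The number of arrays limits the precision.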

Additional observations from a re-analysis of the deposited data

Results flagged for a closer look

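Of 72 groups of 4 arrays (the 7 heme synthesis probes and *cyp1a*), 2 held 1 array far from the other 3 by Dixon's test, a number below the 1 in 20 that chance gives. *hmbs* A_15_P100482 had a log2 ratio of 0.88 in replicate 4 of TCDD embryos on day 1, where the other 3 had 0.61 to 0.66. *uros* A_15_P114524 had −1.05 in replicate 4 of vehicle control on day 4, where the other 3 had −0.91 to −0.89. The TCDD effect on *alas1* differed between days in the interaction test of limma (F = 8.68, unadjusted p = 8.2e-05, adjusted p = 0.063; over the alternatives with all experiments the adjusted p was 0.0258 to 0.136).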

How the results depend on the processing

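The 3 TCDD calls of heme synthesis probes became 2 to 4 over all alternatives, and *alas1* on days 4 and 5 was called in each. With the replicate block, *hmbs* A_15_P106857 was called on day 3 and averaged over days, the adjusted p of *fech* on day 3 was 0.046, and calls of the other heme and iron genes numbered 18 instead of 6; the block changed no other TCDD call of a heme synthesis probe. Averaged over days, 2 instead of 1 of the 7 probes were called with normexp, the embryo channel alone, the replicate block, the scan batch block or ordinary analysis of variance, and 1 to 2 without an experiment. The second was *fech* with normexp, the embryo channel alone and ordinary analysis of variance. With either block and without replicate 1 it was *hmbs* A_15_P106857. Leaving out an experiment gave 0 to 1 interaction calls (0 without replicate 3), 8 to 12 day-to-day calls in vehicle control instead of 13 (8 without replicate 3) and 3 to 7 calls of the other heme and iron genes (3 without replicate 4). The embryo channel alone gave 3 of these. Calls over all probes also moved between the settings. On day 4 there were 726 in the main fit, 421 in the embryo channel alone and 1027 with the replicate block, of 21494 probes tested. With the replicate block, the 18 instead of 6 calls were of 135 probe-days, where 6.13% instead of 4.63% of all probe-days were called. The other counts of the heme and iron probes above are given without the share of all probes in each setting. They therefore do not show whether a change is particular to these probes. The cause of these shifts was not tested.

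Of 490 single differences under an alternative, 456 kept direction and side of the threshold, and 25, all from uncalled values, changed sign. With the embryo channel alone, *uros* A_15_P114524 was 0.053, 0.034 and −0.034 on days 1, 2 and 4, *uros* A_15_P118505 0.074 on day 2 and *fech* −0.26 on day 5. With array weights, *uros* A_15_P114524 was −0.017 on day 4 and *fech* 0.020 and −0.040 on days 1 and 5. With normexp, *urod* was 0.00997 on day 4 and *fech* −0.0088 on day 5, and with the scan batch block *fech* was −0.0063 on day 5. Without 1 experiment, *hmbs* A_15_P100482 ranged from −0.16 to 0.0072 on day 1, from −0.074 to 0.076 on day 3 and from −0.043 to 0.13 on day 5. A_15_P106857 ranged from −0.029 to 0.23 on day 1 and from −0.15 to 0.30 on day 2. *uros* A_15_P114524 ranged from −0.070 to 0.0083 on day 2 and from −0.029 to 0.051 on day 4, and A_15_P118505 from −0.015 to 0.053 on day 4. *fech* ranged from −0.048 to 0.029 on day 1 and from −0.072 to 0.059 on day 5. Over all probes, the share of calls that were higher with TCDD was 41.1% with normexp against 52.5% on day 3, and 37.3% in the embryo channel alone against 47.9% on day 4. Signal over background limits the dim *hmbs* probe.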
